A study of Mus musculus with 10 samples.

Results

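The clustered protocadherins of the main olfactory epithelium (MOE) were examined in mice that overexpress the histone variant H2BE. Members were the probe sets whose gene symbols in the platform annotation all begin with Pcdha, Pcdhb or Pcdhg, and 23 of the 35556 probe sets on the array met this. Of these, 22 each named 1 Pcdhb gene, from Pcdhb1 to Pcdhb22, which are all 22 Pcdhb genes of the RefSeq gene table. The remaining probe set was shared by 14 Pcdha genes and is treated as a separate class. No Pcdhg probe set was named by this annotation, so that the 22 Pcdhg genes of the table, and the Pcdha genes one by one, were not analysed here.

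The data are log2 signals from Affymetrix Mouse Gene 1.0 ST arrays of whole MOE, the sensory tissue of the nose, dissected from 5-week old mice. The 4 H2be-GF arrays came from mice of a transgenic line in which the promoter of olfactory marker protein (Omp) drives FLAG-tagged H2BE in mature olfactory neurons. The 6 wild-type (WT) arrays came from mice without the transgene. Per the study's methods, the line goes back to founders crossed to C57Bl/6, a band of mature neurons near zone 2 does not express the transgene, and RNA of several animals was pooled for each array, of more animals for an H2be-GF array than for a WT array. Per the labels the arrays of 1 genotype are replicates, with no word on whether the pools shared animals or a day. A p-value therefore sets the difference between genotypes against the spread among these pools. The comparison asks whether the protocadherins, which like the olfactory receptors (ORs) are switched on by chance in single neurons, differ in the tissue when H2BE is forced on in mature neurons.

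Clustered protocadherins are adhesion proteins of the neuronal surface, encoded by a row of variable exons or genes that lie one behind the other. Each neuron activates a few of the promoters by chance, with the help of CTCF, cohesin and DNA methylation, and the resulting set of proteins recognises the same set on another membrane. In olfactory neurons a diverse set is needed for axons of like identity to be sorted into glomeruli. Pcdha and Pcdhg transcripts join a variable exon to shared constant exons, whereas each Pcdhb gene is a complete gene without constant exons. A signal from whole tissue sums over all cells, neurons with and without the transgene and other cell types. A change in how many cells chose a promoter, in RNA per cell or in cell makeup cannot be told apart. How much of the protocadherin signal came from neurons was not tested.

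The tissue carried the markers of olfactory epithelium on every array, and Omp lay between 12.75 and 12.81 on H2be-GF arrays and between 12.83 and 12.96 on WT arrays. The probe set of the H2BE gene, Hist2h2be (H2bc21 in the RefSeq table), averaged 11.84 ± 0.07 in H2be-GF (SD, n = 4) and 12.07 ± 0.05 in WT (SD, n = 6). It was thus lower, not higher, in the arrays labelled H2be-GF, with no overlap between genotypes. The change was -0.23 (limma unadjusted p = 0.00218, adjusted p = 0.297). The study reports, from quantitative PCR not shown there, that this line expresses the transgene well above the endogenous gene. Whether the probes of the Hist2h2be probe set lie in the part of the gene that the transgene holds is not known here, so that this probe set does not check the labels. Array medians over all probe sets lay between 7.74 and 7.91. The arrays H2be-GF 1 and 2 and WT 1, 2 and 3 were high in the X-inactivating RNA Xist (11.69 or above), and the other 5 were at 4.61 or below. The Y-linked gene Eif2s3y was at 0 on the Xist-high arrays and at 10.47 to 10.79 on the others. No array was thus high in both genes, as a pool of both sexes would be. The labels give no sex for any array, and the series' text speaks of males and females mixed in equal parts, without saying whether within or between arrays. By these genes the sexes lay on separate arrays. What else differs between these sets is not known. Both sets held both genotypes, and values within each are given below.

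No clustered protocadherin differed between H2be-GF and WT past the threshold. All 23 probe sets passed the filter on dim signal, a mean above 5 over all arrays, and limma called 0 of 23 at an adjusted p under 0.05. Over all 23194 probe sets tested 20 were called, or 0.0862%, with 0.0474% higher and 0.0388% lower in H2be-GF, so that 0 of 23 is near the background. With no adjustment, 1 of 23 (Pcdhb9, higher) had a limma p under 0.05 and 0 were lower, against 8.43% of all probe sets, of which 4.35% were higher and 4.07% lower. In 0 of 23 did the H2be-GF arrays lie wholly above or below the WT arrays, a separation found for 2.89% of all probe sets.

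The intervals show what size of change the 10 arrays leave room for. The 95% intervals of the 22 Pcdhb changes lay between -0.58 and 0.44 on the log2 scale, and the moderated SE of a Pcdhb gene was 0.12 at the median. Estimated changes ran from -0.20 for Pcdhb6 to 0.26 for Pcdhb9, with a median of 0.05. The median over all probe sets was 0.01. Of the 22 genes, 16 lay above 0, against 52.6% of all probe sets. The count rests on single arrays, at 11 of 22 without H2be-GF 1 and 20 of 22 without H2be-GF 4, with medians of -0.00 and 0.12.

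**Figure D1:**
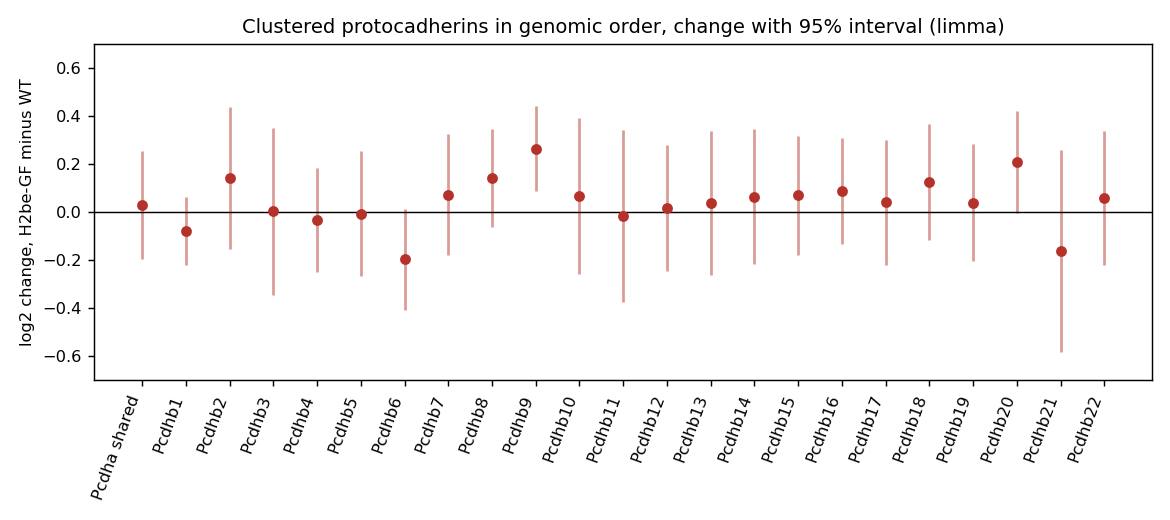
Log2 change, H2be-GF minus WT, of the shared Pcdha probe set and the 22 Pcdhb genes in their order along chromosome 18. Points are limma estimates and bars their 95% intervals, and the interval of Pcdhb9 alone (0.09 to 0.44) does not include 0.

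Pcdhb9, a gene in the middle of the row, was the only member named by its p. Its log2 signal was 8.40, 8.15, 8.30 and 8.05 on the H2be-GF arrays, against 7.82 at the lowest, 7.99 at the median and 8.07 at the highest on the WT arrays. H2be-GF 1, 2 and 3 lay above every WT array, and H2be-GF 4 lay within the WT range. The change was 0.26 (SE 0.08, 95% interval 0.09 to 0.44), or 1.20-fold, with a limma unadjusted p of 0.00706 and adjusted p of 0.387. It was 0.31 among the Xist-high arrays and 0.22 among the Xist-low ones.

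The next members by size of change were chosen after their values were seen, and none passed the test. Pcdhb20 had 8.32, 8.37, 8.39 and 8.21 in H2be-GF, against a WT range of 7.81 to 8.31 with a median of 8.15. All 4 H2be-GF arrays stood above the WT median, and the ranges overlapped at H2be-GF 4. The change of 0.21 (SE 0.10) had a limma adjusted p of 0.604.

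Pcdhb6 was the member with the lowest estimate. It had 7.19, 7.24, 7.53 and 7.15 in H2be-GF, against a WT range of 7.22 to 7.58 with a median of 7.54. H2be-GF 1 and 4 were below every WT array, while H2be-GF 3 lay among the WT values. The change of -0.20 (SE 0.10) had a limma adjusted p of 0.627.

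Pcdhb21 was the most scattered of the genes, at 7.07, 6.53, 6.74 and 5.97 in H2be-GF, against a WT range of 6.36 to 7.001. Its highest and lowest array were both H2be-GF. Its change of -0.16 (SE 0.19, limma adjusted p = 0.865) became 0.04 without H2be-GF 4.

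Pcdhb1, the first gene of the row, had the narrowest interval. Its signal was 11.25, 11.12, 11.18 and 11.00 in H2be-GF, against a WT range of 11.11 to 11.28 with a median of 11.23. The change was -0.08 with a 95% interval of -0.22 to 0.06 (limma adjusted p = 0.779), so that a rise above 0.06 or a fall beyond -0.22 lies outside it. Only H2be-GF 4 was below the WT range.

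**Figure D2:**
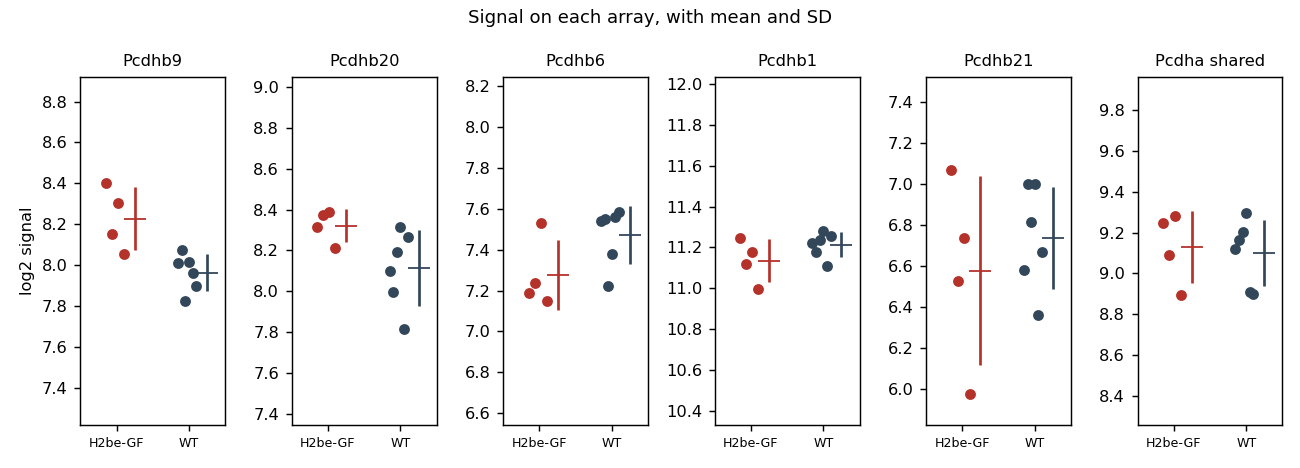
Log2 signal of 5 Pcdhb genes and the shared Pcdha probe set on each array (points), with the mean and SD beside them, H2be-GF on the left (n = 4) and WT on the right (n = 6). Every vertical axis spans the same number of log2 units, and in each panel the 2 genotypes overlap, for Pcdhb9 only through H2be-GF 4.

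The other 17 Pcdhb genes had changes of -0.03 to 0.14. Pcdhb8 and Pcdhb2 stood at 0.14 (limma adjusted p = 0.707 and 0.810), Pcdhb18 at 0.13 (limma adjusted p = 0.795) and Pcdhb16 at 0.09 (limma adjusted p = 0.857). The 4 of them below 0.01 were Pcdhb3 at 0.00, Pcdhb5 and Pcdhb11 at -0.01 and Pcdhb4 at -0.03, with adjusted p of 0.956 or above in limma. The spread of Pcdhb2 was wide in WT, from 7.05 to 7.65, and its 4 H2be-GF values of 7.69, 7.44, 7.64 and 7.30 lay close to or within that range.

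The shared Pcdha probe set, which cannot tell the 14 alpha isoforms apart, had 9.25, 9.09, 9.28 and 8.89 in H2be-GF, against a WT range of 8.90 to 9.30 with a median of 9.14. Both genotypes covered the same range. The change was 0.03 with a 95% interval of -0.19 to 0.25 (limma adjusted p = 0.961), and it was -0.01 without H2be-GF 1 and -0.02 without H2be-GF 3. The C-type alpha isoforms were not measured singly.

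The Pcdhb genes varied more between arrays of 1 genotype than between the genotype means. The mean over the 22 genes was 8.16, 7.96, 8.08 and 7.78 on H2be-GF 1 to 4, and 8.002, 7.96, 7.97, 8.10, 7.74 and 7.93 on WT 1 to 6. The H2be-GF arrays averaged 7.99 ± 0.17 (SD, n = 4) and the WT arrays 7.95 ± 0.12 (SD, n = 6), a difference of 0.04, whereas arrays of 1 genotype spread over 0.38 in H2be-GF and 0.36 in WT. H2be-GF 1 and 3 and WT 4 were high, and H2be-GF 4 and WT 5 low.

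Nearly all genes shared this order. On H2be-GF 1, 21 of the 22 genes were above their own median over the 10 arrays, and on H2be-GF 3 there were 19, against 2 on H2be-GF 4. On WT 4 there were 17, and on WT 5 there was 1. H2be-GF 1 was the highest array for 11 genes, WT 5 the lowest for 9 and H2be-GF 4 the lowest for 8.

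The arrays were also compared over other probe sets. On H2be-GF 1 the Pcdhb genes stood 0.19 above their means over the 10 arrays, beside 0.12 for the ORs and 0.05 for all probe sets tested. On H2be-GF 4 they stood at -0.19, beside -0.12 for the ORs and -0.03 for all. H2be-GF 3 had 0.11 for Pcdhb and 0.02 for the ORs. Among WT arrays the Pcdhb genes were further out than the ORs on WT 5 (-0.23, beside -0.10) and WT 4 (0.13, beside 0.09). On the other WT arrays the ORs were further out, with -0.09 on WT 3, -0.11 on WT 6, 0.11 on WT 2 and 0.06 on WT 1, where the Pcdhb genes had 0.01, -0.03, -0.01 and 0.03.

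Levels of neuron markers moved with this order in part, and so did some other lists. The mean over mature neuron markers was 11.66, 11.58, 11.67 and 11.64 on H2be-GF 1 to 4, so that the arrays highest in Pcdhb were also the highest in these markers among H2be-GF. On WT 1 to 6 it was 11.72, 11.69, 11.69, 11.77, 11.69 and 11.68, highest on WT 4, the WT array highest in Pcdhb. The mean over immature neuron markers was 10.52, 10.40, 10.41 and 10.44 on H2be-GF 1 to 4, and ran from 10.35 on WT 2 to 10.54 on WT 1, with 10.36 on WT 5. At the low end mature markers did not follow, with H2be-GF 2 and WT 6 the lowest of their genotypes. Ensheathing glia and nerve markers were highest on H2be-GF 1 (8.80) and lowest on WT 5 (8.61). Genes of DNA methylation and silencing were likewise highest on H2be-GF 1 (9.26) and lowest on WT 5 (9.13). Sustentacular cell markers went the other way, highest on WT 5 (11.27). The part of any of these levels in the shared order was not tested.

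**Figure D3:**
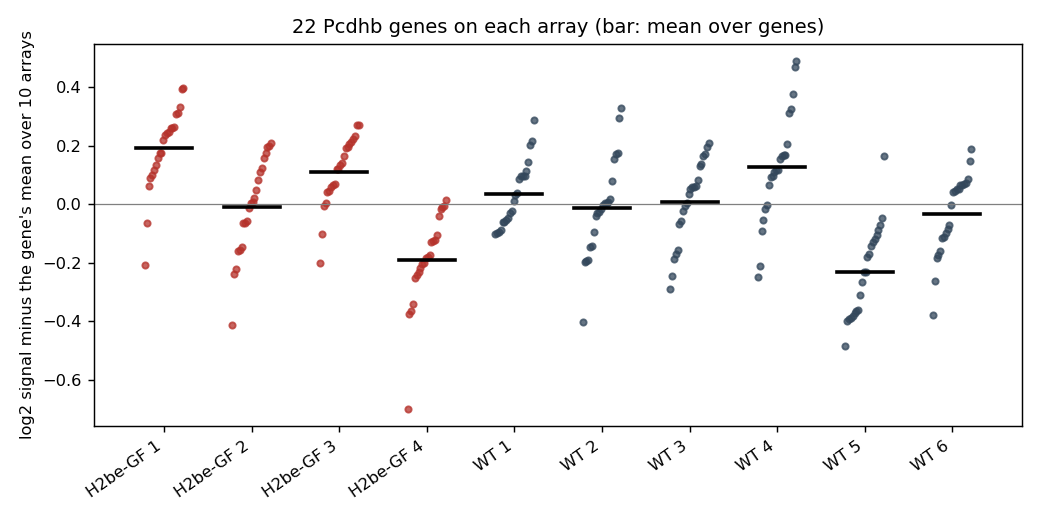
Log2 signal of each Pcdhb gene on each array minus that gene's mean over the 10 arrays, with genes sorted from low to high within an array and a bar at their mean. H2be-GF 1 (mean 0.19) and H2be-GF 4 (-0.19) lie at opposite ends although they share a genotype, and WT 4 (0.13) and WT 5 (-0.23) do likewise.

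Measured within each genotype, most pairs of Pcdhb genes went up and down together over the 10 arrays. The mean correlation of the 231 pairs, after taking out the mean of each genotype, was 0.447, and 211 of the pairs were above 0. It was 0.239 over pairs of ORs and 0.0347 over pairs of all probe sets. With each array centred on its median these values were 0.339, 0.0983 and 0.0295. With the difference between the Xist sets taken out the Pcdhb value was 0.438. These are descriptions over the same 10 arrays, in which all genes of an array share its RNA pool and its normalization. Pcdhb genes are close copies of each other, and whether probes of 1 gene also bind RNA of another was not tested.

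Single members followed the others to unlike degrees. The correlation of a gene with the mean of the other 21 was 0.939 for Pcdhb1, 0.912 for Pcdhb17, 0.873 for Pcdhb21 and 0.813 for Pcdhb15, genes spread over the whole row. It was -0.0573 for Pcdhb6, 0.251 for Pcdhb10 and 0.363 for Pcdhb19. The shared Pcdha probe set, which reads another gene class, followed the Pcdhb mean at 0.873, or 0.787 with each array centred on its median. The 21 pairs of next neighbours along the chromosome had a mean correlation of 0.520, and the other 210 pairs one of 0.439. Pcdhb9 followed at 0.614 and Pcdhb20 at 0.660. With each array centred on its median, Pcdhb20 stood at 0.689, but Pcdhb9 at 0.338, Pcdhb10 at -0.0941 and Pcdhb6 at -0.272.

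Some of the lists of related genes moved together as well, though their functions differ. Among them, the 18 immature neuron markers tested had a mean pair correlation of 0.410. The 28 axon guidance and surface genes had 0.256 and the 19 mature neuron markers 0.251. The 21 non-clustered protocadherins had 0.167 and the 27 genes that flank the cluster 0.00803. With each array centred on its median the values were 0.495 for immature neuron markers, 0.319 for mature neuron markers and 0.169 for flanking genes. Other lists then also lay near or above the 0.339 of the Pcdhb genes, with 0.486 for sustentacular cell markers (0.157 before centring), 0.338 for respiratory epithelium and glands (0.0447 before) and 0.291 for protocadherin cleavage and transport (-0.0032 before). No difference between these values was tested.

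The sets of arrays that differ in Xist gave no call either. In the fit with genotype, 0 of 23 probe sets differed between the sets past an adjusted p of 0.05 in limma, against 0.427% of all probe sets, and 1 of 23 did at an unadjusted p under 0.05, against 5.24%. That gene was Pcdhb12, named after its values were seen, which was 0.24 higher (SE 0.10) among Xist-high arrays (limma adjusted p = 0.862). The median difference, Xist-high minus Xist-low, was 0.09 over the Pcdhb genes, 0.09 over the ORs and 0.03 over all probe sets. The change between genotypes did not differ between the sets for any of 23 at an unadjusted p under 0.05, against 2.92% of all probe sets, and for none of all 23194 at an adjusted p under 0.05. Its sign was the same in both sets for 15 of 23 members, or 65.2%, and for 58.6% of all probe sets.

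Beside the Pcdhb genes, the ORs, the other gene family of the nose that is chosen by chance, spread more widely between genotypes. The SD of the changes was 0.106 over the 22 Pcdhb genes, 0.193 over 1117 ORs and 0.134 over all probe sets. Of the ORs, 19.5% had an unadjusted limma p under 0.05 (118 with a change above 0 and 100 below), against 8.43% of all probe sets. Past the adjusted threshold in limma 7 of the 1117 ORs fell and 0 rose, where 0.0862% of all probe sets were called in either direction. Within a genotype the moderated residual SD of a gene was 0.181 at the median for Pcdhb, 0.175 for ORs and 0.144 for all. This SD is drawn by limma towards a value common to all genes, which brings the sets closer together. Among probe sets with a mean between 7 and 9 it was 0.178 for 17 Pcdhb genes, 0.169 for ORs and 0.152 for all. By this moderated SD, Pcdhb genes scattered between arrays about as much as ORs did, while their changes between genotypes spread less. The measures are unlike, as the SD of the changes leaves out a shift shared by the genes and the moderated SD includes it. The mean pair correlation within a genotype was also higher for Pcdhb than for ORs (0.447 and 0.239). The difference in spread was not tested.

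**Figure D4:**
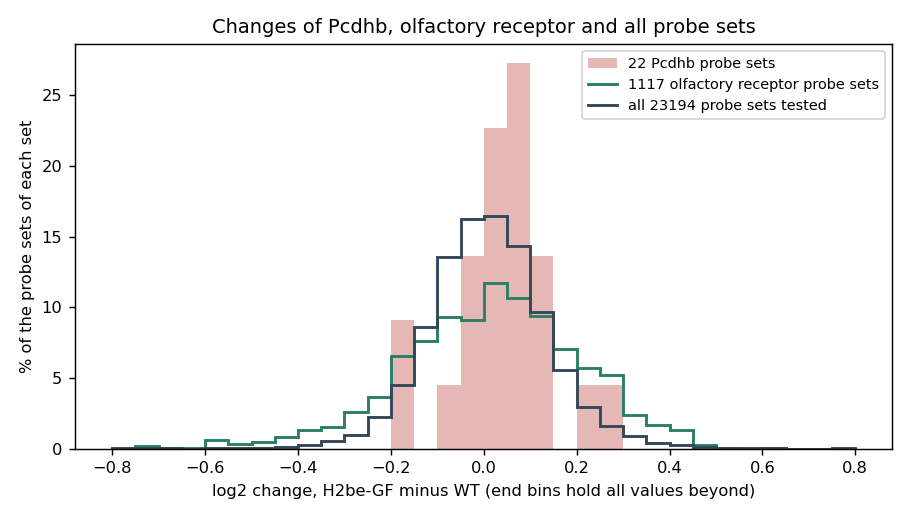
Share of probe sets (%) in each bin of the log2 change, H2be-GF minus WT, for the 22 Pcdhb genes (filled), 1117 ORs and all 23194 probe sets tested (lines). The Pcdhb changes have an SD of 0.106 and end at -0.20 and 0.26, whereas the OR changes have an SD of 0.193.

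The factors that act in protocadherin promoter choice showed no call. The first list held 15 genes, for CTCF, cohesin and their regulators and for the DNA-binding factors Yy1 and Rest. Its median change was 0.06. At an unadjusted p under 0.05, 1 was higher and 0 lower, where 4.35% of all probe sets were higher and 4.07% lower. That gene was Wapl, which releases cohesin from DNA, at 9.86, 9.99, 9.90 and 9.86 in H2be-GF against 9.50 to 9.87 in WT. Its H2be-GF arrays overlapped with WT 2 alone, and its change was 0.22 (SE 0.08, limma adjusted p = 0.439). Of 18 genes for DNA methylation and silencing, 0 passed an unadjusted p under 0.05, and none of the 23 cytoplasmic partners of protocadherins or the 9 genes of their cleavage and transport did. The medians of the last 3 lists were 0.01, 0.05 and 0.06.

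The genes on both sides of the cluster on chromosome 18 were read for a change of the region. Of 27 tested, an unadjusted p under 0.05 was found for 1 higher and 1 lower gene, and the median change was -0.02. Slc25a2, a mitochondrial carrier gene that lies between the Pcdhb and Pcdhg genes, had 6.54, 6.35, 6.02 and 6.30 in H2be-GF against 5.98 to 6.16 in WT. H2be-GF 3 lay within the WT range, and the change of 0.24 (SE 0.09) had a limma adjusted p of 0.487. Tmco6, a transmembrane protein gene, had a change of -0.17 (SE 0.07, limma adjusted p = 0.542). Taf7, next to Slc25a2 and chosen for its place, stood at 0.03 (limma adjusted p = 0.969).

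Other adhesion molecules were counted beside the clustered protocadherins, and no difference between the lists was tested. Of 21 non-clustered protocadherins and large cadherins, an unadjusted p under 0.05 was found for 4 higher and 0 lower genes, where 4.35% of all probe sets were higher. None was called after adjustment. Pcdh8 had 9.24, 9.05, 8.99 and 8.93 in H2be-GF against a WT range of 8.53 to 8.87, with no overlap. Its change was 0.30 (SE 0.09, limma adjusted p = 0.344), and that of Pcdh7 was 0.19 (SE 0.07, limma adjusted p = 0.439). Dchs1, a large cadherin of planar polarity, had a change of 0.30 (SE 0.13, limma adjusted p = 0.557), and Pcdh15, named beyond the rule as the remaining gene, one of 0.24 (limma adjusted p = 0.572). Of 18 classical cadherins only Cdh18 passed an unadjusted p under 0.05, at 0.28 (SE 0.11, limma adjusted p = 0.522).

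Of 28 genes for axon guidance or sorting, 6 were higher and 0 lower by the same unadjusted count, and none was called after adjustment. Over all probe sets 4.35% were higher and 4.07% lower by this count. Most of the 28 encode surface molecules, but Slit1, Sema3a and Sema3f encode secreted proteins and Dpysl2 a cytosolic one. The median change of the list was 0.04, and 9 of its genes lay below 0. Ncam2, an adhesion molecule of olfactory axons, had 10.82, 10.79, 10.71 and 10.73 in H2be-GF against 10.48 to 10.53 in WT. Its groups lay apart, as did those of 2.89% of all probe sets, with a change of 0.26 (SE 0.05, limma adjusted p = 0.147). Nrp1, a semaphorin receptor that helps to order olfactory axons, had 9.67, 9.78, 9.57 and 9.43 in H2be-GF against 9.22 to 9.42 in WT, with a change of 0.30 (SE 0.08, limma adjusted p = 0.296). Tenm1, a teneurin, had a change of 0.61 (SE 0.19, limma adjusted p = 0.399), with arrays that overlapped. The other 3 were Efna5, Nfasc and Dscaml1, at 0.20 to 0.23. No difference between this list and the Pcdhb genes was tested.

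**Figure D5:**
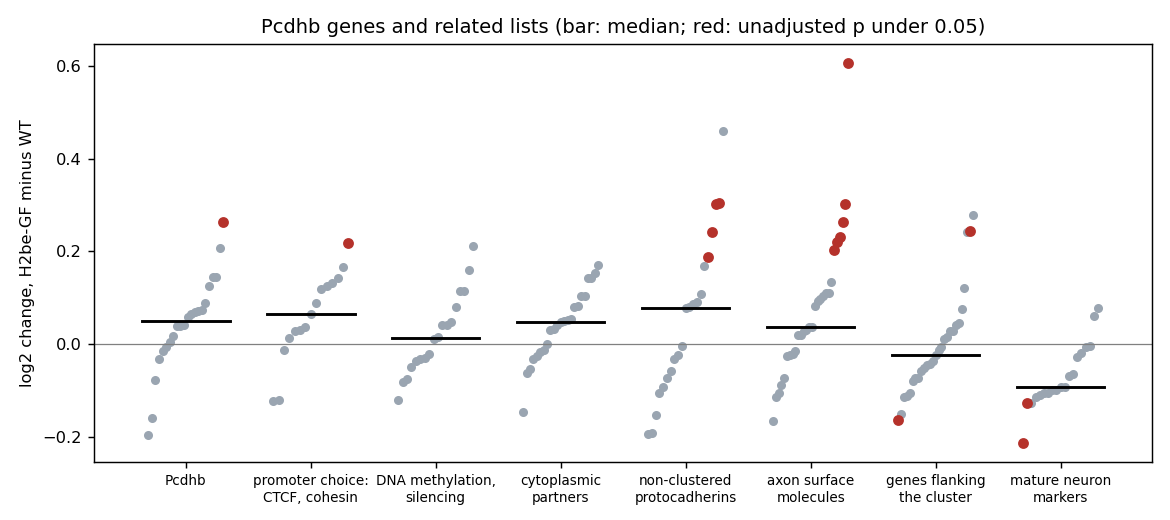
Log2 change, H2be-GF minus WT, of every tested gene in the Pcdhb family and 7 lists, with a bar at the median and genes at an unadjusted limma p under 0.05 in red. Pcdhb has 1 such gene of 22, non-clustered protocadherins 4 of 21 and axon surface molecules 6 of 28, beside 8.43% of all probe sets. The list of axon surface molecules also holds secreted ligands and a cytosolic protein. Mature neuron markers have a median of -0.09.

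Of the markers of cell types in the tissue, only Lhx2, described below, was called. Of 19 mature neuron markers 17 had a change below 0, against 10997 of all 23194 probe sets tested, and the list's median was -0.09. Their mean over genes was 11.58 to 11.67 on H2be-GF arrays against 11.68 to 11.77 on WT arrays. S100a5, a calcium-binding protein of active olfactory neurons, had a change of -0.21 (SE 0.06, limma adjusted p = 0.380), and Cnga4, a subunit of the olfactory transduction channel, one of -0.13 (SE 0.06, limma adjusted p = 0.587). The mean over 15 progenitor and basal cell markers was 9.08 to 9.16 in H2be-GF against 9.17 to 9.30 in WT, with a median change of -0.04. Without Krt15, a step added after seeing the data, the mean was 9.12 to 9.21 in H2be-GF and 9.17 to 9.30 in WT, and the genotypes overlapped. In that list Krt15, a keratin, stood at -0.54 (SE 0.14, limma adjusted p = 0.296), Hes6 at -0.14 (limma adjusted p = 0.555) and Neurog1 at 0.16 (limma adjusted p = 0.505). The Pcdhb mean over genes overlapped between genotypes on the same arrays, and the part of cell makeup in the Pcdhb values was not tested.

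One gene among the lists was called. Lhx2, a homeodomain factor of olfactory neurons that stands in the list of immature neuron markers, had 11.50, 11.42, 11.46 and 11.45 in H2be-GF against 11.01 to 11.17 in WT. It rose by 0.37 (SE 0.06, limma adjusted p = 0.0425), with no overlap. The call was lost without any single array of the 10, at adjusted p of 0.0665 to 0.190 in limma, while the change stayed between 0.35 and 0.38. Stmn4, a stathmin of growing neurons in the same list, had a change of -0.17 (limma adjusted p = 0.522), and the list's median was -0.00.

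The remaining lists held few genes at an unadjusted p under 0.05, and none was called. Among the 13 sustentacular cell markers it was Hes1 (-0.19, limma adjusted p = 0.482), among 13 markers of ensheathing glia and nerve Cdh19 (0.23, limma adjusted p = 0.465), and among 10 of microvillous cells Pou2f3 (-0.26, limma adjusted p = 0.430). Of 18 vessel, stroma and immune markers there were Ptprc (0.27, limma adjusted p = 0.537) and Vwf (0.26, limma adjusted p = 0.547). Of 15 genes of respiratory epithelium and glands 4 were lower, where 4.07% of all probe sets were, with Tekt1 at -0.19 (limma adjusted p = 0.405), Cfap126 at -0.21 (limma adjusted p = 0.411) and Foxj1 at -0.16 (limma adjusted p = 0.522), all genes of motile cilia.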

How the data were processed

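Whole MOE RNA of 4 H2be-GF and 6 WT arrays was measured. The authors checked the scans with arrayQualityMetrics, ran IterPLIER with a sketch-quantile step in Affymetrix Expression Console, and deposited log2 values, which ran from 0 to 14.2. Tool versions and genome build are not given in the sources used here. Quantile normalization hides a change shared by most genes. Scans and probe sequences were not used here.

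The platform annotation named the probe sets (1 symbol for 21789, several for 1621, none for 12146), with symbols updated through Entrez IDs by a RefSeq table of GRCm38.p6 (21698 matched), used only for names and gene order. Differences were fitted with limma 3.58.1 in R 4.3.3 (two-sided, with genotype as the only term) on 23194 probe sets, those that had a symbol and a mean above 5, with Benjamini-Hochberg adjustment over all of them and a threshold of 0.05. In lists each gene had the probe set of the higher mean. The fit was tested on simulated data. Genes were named as each family's up to 4 higher and 4 lower, and each list's up to 3, of smallest p among those under an unadjusted 0.05, plus shared probe sets, Hist2h2be and Omp. Members, lists and this rule were chosen with earlier results of these data known. Alternatives covered normalization, filters, an added constant, variance, array weights, a sex-linked covariate and the replicate number as a block. They also covered single-gene probe sets alone and leaving out each array. Plots used matplotlib 3.10.9.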

Additional observations from a re-analysis of the deposited data

Results flagged for a closer look

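Among the genes named by the rule, the other genes of the lists at an unadjusted p under 0.05 and all 23 clustered protocadherins, 112 groups of arrays were looked at for an array far from the rest, and 4 were marked, where chance marks about 1 group in 20. Both protocadherins among them pointed to the array on which the Pcdhb genes were lowest. Pcdhb12 had 7.21 on WT 5, where the nearest WT array had 7.57. Pcdhb16 had 8.99 on WT 5, where the nearest WT array had 9.34. Stmn4 was at 10.95 on WT 1 (nearest WT array 10.78), and Tekt1 was at 9.33 on WT 2 (nearest WT array 9.44). No protocadherin's change differed between the arrays high and low in Xist by an adjusted interaction test in limma.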

How the results depend on the processing

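The count of 0 clustered protocadherins called by limma held under all 20 alternatives, while at an unadjusted p under 0.05 they gave 0 to 3 members. The 3 were Pcdhb8, Pcdhb9 and Pcdhb20, without H2be-GF 4. The alternative that counted single-gene probe sets alone used the main fit, so that its count of 0 called was fixed in advance. Pcdhb9 was past an unadjusted p of 0.05 under every alternative except the replicate block, with a change of 0.21 to 0.32 when 1 array was left out. With 1 array left out, the Pcdhb median ran from -0.00 (without H2be-GF 1) to 0.12 (without H2be-GF 4). Leaving out 1 array moved the shared Pcdha probe set over -0.021 to 0.11 and Pcdhb21 over -0.32 to 0.041, so that neither has a settled sign. Calls over all probe sets were 36 with a filter at 7, which drops Pcdhb10, Pcdhb13 and Pcdhb21, 114 with a trended robust variance, 11 without H2be-GF 1 and 13 without H2be-GF 3. That variance alone called Ncam2, Nrp1, S100a5 and Krt15 (limma adjusted p = 0.00431, 0.0153, 5.17e-04 and 9.08e-07). Lhx2 also lost its call with a second quantile normalization (adjusted p = 0.0637), median centring (0.149) and the sex-linked covariate (0.0764). The OR pair correlation was 0.0926 after a second quantile normalization, so that how far Pcdhb and ORs move with the array depends on scaling. The cause of these shifts was not tested.

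The labels do not say whether same-numbered arrays of both genotypes share more than a number. The correlations of their deviations were 0.53, 0.22, -0.42 and 0.26. H2be-GF 1 had its best match in WT 1, but H2be-GF 2, 3 and 4 had theirs in WT 3, 4 and 6. WT 5 and WT 6 have no H2be-GF array of their number, so that a fit with the number as a block takes the genotype difference from the other arrays alone. WT 5 was the array lowest in Pcdhb (-0.23), and its loss and the block were not told apart. When that number was fitted as a replicate block, limma called 5 probe sets in all and no protocadherin, 7 of 22 Pcdhb genes lay above 0 with a median of -0.02, the shared Pcdha probe set was at -0.067 and Pcdhb2 at -0.015, and the adjusted p of Lhx2 was 0.592. The number of arrays limits what can be seen. For the median Pcdhb gene the SE was 0.12.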
